A study of Mus musculus with 21 samples.

Results

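Newly made RNA was compared between mouse embryonic stem cells that lack DDX6 and wild-type cells, using the libraries of RNA labelled with 4-thiouridine (4sU) alone. Cells were given 500 µM 4sU for 30 min, and the RNA that had taken it up was pulled down before sequencing, so that a library holds mostly RNA made during the labelling; this is called nascent RNA here. The comparison used 7 of the 14 libraries of the series: 3 wild-type replicates and 4 Ddx6 KO replicates, 2 from each of 2 clones. Each library was sequenced in 2 runs, so the comparison rests on 14 of the 21 deposited runs. All groups were V6.5 embryonic stem cells, a mouse line, grown with serum, LIF and the MEK and GSK3 inhibitors known as 2i. The KO clones were made by CRISPR-Cas9 cutting, and exon 7 was cut near its start: 1 of the clones gained a base there and the other lost a longer stretch, and both read into an early stop codon; the labels do not say which clone carries which. Wild-type cells are the uncut parent line, so 2 clones stand for the knockout, and a difference of a clone from the parent that is unrelated to DDX6 cannot be told apart from an effect of its loss where both clones share it. The labels do not say whether replicates were separate cultures, so p-values measure the spread between these samples, which may be technical.

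DDX6 is a DEAD-box RNA helicase of P-bodies, the cytoplasmic granules that hold translationally repressed mRNA, and it works with the decapping machinery and with the microRNA silencing complex. Its known work is on finished mRNA in the cytoplasm. Nascent RNA mostly reads out synthesis of RNA, with only as much decay as fits into the labelling time. Carry-over of unlabelled RNA through the pulldown was not tested. Genes of the mitochondrial genome, of replication-dependent histones and of chromosome 6 were set aside from the description, but stayed in the fit.

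Of 51467 genes in the table, 14062 passed the filter of at least 3 CPM, counts scaled to a common library total, in at least 3 of the 7 libraries, and 13273 of these lay outside the classes set aside. Library totals ran from 2441639 to 3570192 counts. Rank correlations across genes, which are not independent replicates, were 0.981 to 0.985 within a genotype group and 0.938 to 0.949 between the genotypes. Histone genes made up 2.27 to 2.79% of the counts in wild type and 0.884 to 1.23% in Ddx6 KO, and mitochondrial genes 10.8 to 14.2% and 7.07 to 8.99%. Spike-in rows were all 0, so each level is relative to the rest of its own library. Values are CPM after scaling by TMM factors, and "higher" or "lower" alone means an adjusted p below 0.05 in edgeR's quasi-likelihood test over all tested genes; "called" further asks for more than a 2-fold change.

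The targeted gene was checked first. Ddx6 nascent RNA was 246, 248 and 273 CPM in the wild-type replicates, 227 and 235 CPM in clone 1, and 166 and 147 CPM in clone 2. The KO replicates sat below wild type, but the log2 change of -0.40 ± 0.16 (SE) had an adjusted p of 0.066. It passed the threshold without clone 1 replicate 1 (0.0032) or replicate 2 (0.0010) and without clone 2 replicate 2 (0.015). In total RNA of the same samples, Ddx6 was 324 to 376 CPM in wild type, 58.7 and 69.7 in clone 1, and 23.5 and 22.2 in clone 2, a log2 change of -3.04 (adjusted p = 0.0011). Total RNA of every KO sample thus had less Ddx6 than any wild-type sample.

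Markers of embryonic stem cells were high in all 7 libraries: the 8 markers summed to 4492 to 4953 CPM in wild type and 4711 to 4898 CPM in Ddx6 KO. The sum takes in Nanog, a gene of chromosome 6, and its members moved both ways. Sox2, Sall4 and Dppa5a lay below all wild-type values in every KO library. Pou5f1, Nanog, Esrrb, Zfp42 and Tdgf1 lay above them. Of 18 markers of feeder fibroblasts, 10 had at most 3 counts in every library, among them the defining collagens Col1a2 and Col3a1, and the list summed to 31.0 to 37.1 CPM in wild type and 43.5 to 57.3 CPM in Ddx6 KO. Fbn1 and Cd44 were the 2 higher of the 8 feeder markers tested. The neural list summed to 453 to 527 CPM in wild type and 361 to 413 CPM in KO, and the primitive streak list to 88.4 to 95.9 and 67.0 to 72.0 CPM. Of the 6 primitive streak genes tested, 2 were lower and 1 higher. The primitive endoderm list, the other way, summed to 647 to 689 CPM in wild type and 699 to 742 CPM in KO. That sum leans on Lamc1, at 344, 349 and 371 CPM in wild type and 382, 391, 382 and 388 CPM in KO. Of the 11 primitive endoderm genes tested, 1 was higher, 1 lower and 9 did not pass. The trophectoderm list summed to 397 to 423 CPM in wild type and 348 to 376 CPM in KO. Its sum leans on 1 member, Id2, at 142, 141 and 146 CPM in wild type and 31.2, 42.2, 30.5 and 32.2 CPM in KO. Of its 11 members tested outside the classes set aside, 4 were higher and 3 lower, with a median log2 change of 0.22. The part of these cells in the results was not tested. In bulk samples, fewer cells of a type and less RNA per cell cannot be told apart.

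Nascent RNA of many genes differed between Ddx6 KO and wild type, in both directions. Over all tested genes, 701 were called higher (4.99%) and 787 lower (5.6%), and with the adjusted p alone 2736 were higher (19.5%) and 2829 lower (20.1%). Outside the classes set aside, 578 were called higher (4.35%) and 720 lower (5.42%), and with the adjusted p alone 2314 were higher (17.4%) and 2728 lower (20.6%). These last shares, 17.4% and 20.6%, are the background against which gene lists are read below. The median log2 change there was -0.01, with quartiles of -0.33 and 0.28. On chromosome 6, 422 of 711 tested genes were higher and 26 lower, with a median of 0.54. Medians of the 18 other autosomes ran from -0.09 to 0.05. The reasons for the shifts of chromosomes 6 and X, and their part in the other changes, were not tested. Of the 1298 genes called outside the classes set aside, 1241 had no overlap between the 4 KO and the 3 wild-type replicates, against 42.1% of all tested genes. The call itself picks genes with a wide gap between these groups, so the lack of overlap is a description.

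Scaling sets where 0 lies. With scaling by library size alone, the median of all genes moved to 0.21 on the log2 scale, and the calls became 1068 higher and 470 lower, so that 69.4% were higher in place of 47.1%. Where that scaling turned the balance of a list described below or the sign of its median, its counts under library size alone are given beside the main ones.

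Called genes differed in kind by direction. Of genes called higher, 89.5% were protein-coding, with a median exon length of 3173 bases, and of genes called lower 57.2% were, with a median of 1958 bases. Of genes that did not pass the adjusted p, 83.2% were protein-coding, with a median of 2961 bases. Genes called higher thus lay near these, and genes called lower stood apart. Small noncoding RNAs lay on the lower side. Of 207 small nucleolar RNAs (guides for chemical modification of ribosomal RNA), 150 were lower and 0 higher, with a median log2 change of -0.89. Of 40 small nuclear RNAs, 29 were lower and 0 higher (median -0.95), and of 52 microRNA genes 27 were lower and 0 higher (median -0.57). Long noncoding RNAs leaned the same way, with 106 of 328 lincRNAs lower and 28 higher, and 61 of 256 antisense RNAs lower and 13 higher. Reads that fall in a small RNA may also come from its host transcript.

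Gene length moved with the change among protein-coding genes. They were split into 5 groups of equal size by genomic span. In the shortest group (median 4524 bases), 32.7% were lower and 12.7% higher, with a median log2 change of -0.16. In the longest group (median 112799 bases), 10.8% were lower and 33.8% higher, with a median of 0.17. By exon length, the share lower fell from 25.3% in the shortest group to 14.3% in the longest, while the share higher rose from 10.2% to 31.0%. Wild-type level moved with the change too. In the lowest of 5 groups by wild-type CPM, 24.3% were higher and 8.82% lower, and in the highest 16.1% were higher and 37.0% lower. Genes low in wild type could pass the filter through the KO libraries alone, and the wild-type level is also the base of the change. Both can tilt the lowest group to the higher side, so the trend with level is a description. Among the lists described below, the median exon length was 903 bases for cytosolic ribosomal proteins, 922 for small nucleolar RNA hosts, 963 for respiratory chain subunits, 1219 for mitochondrial ribosomal proteins and 1552 for the proteasome, and 5814 for laminins and integrins, 5935 for histone methyltransferases and demethylases, 6190 for collagens and 6656 for Hedgehog targets, against 3052 over all tested genes outside the classes set aside. The part of length and level in the results on lists was not tested.

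**Figure D1:**
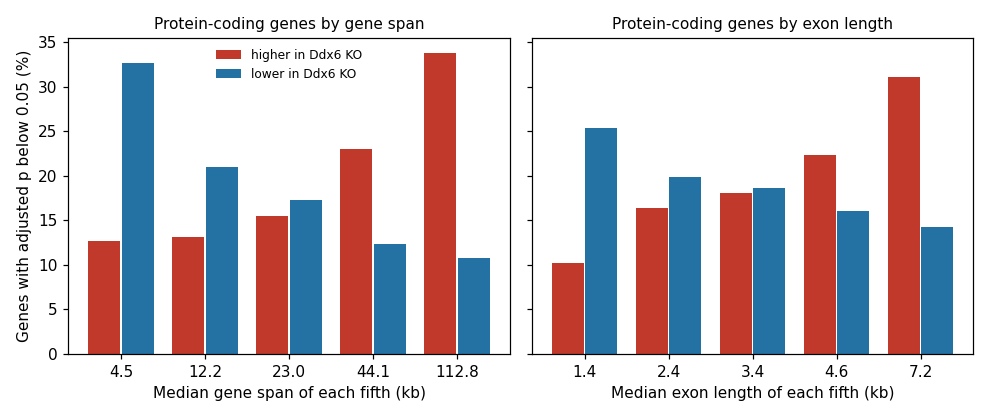
Share of protein-coding genes with higher (red) and lower (blue) nascent RNA in Ddx6 KO, in 5 groups of equal size by genomic span (left) and by exon length (right), each labelled with its median length in kb. The share higher climbs from 12.7% to 33.8% and the share lower drops from 32.7% to 10.8% across the span groups.

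Among genes past a minimum mean level in KO, the strongest rises were of genes at low levels in wild type. Some of these passed the filter through the KO libraries alone. Non-overlap of the groups was part of the rule for naming most genes, so it is stated as a description. Spry4, a Sprouty feedback inhibitor of receptor tyrosine kinase and ERK signalling, was 8.04, 7.38 and 12.7 CPM in the wild-type replicates and 237, 238, 331 and 213 CPM in the KO replicates. All 4 KO values lay far above the 3 wild-type values, and the log2 change was 4.74 ± 0.22 (SE, adjusted p = 4.21e-10). Gm364 (mm10, chrX:57409154-57488767) was 1.79, 1.84 and 1.09 CPM in wild type and 24.6, 29.8, 36.6 and 31.7 CPM in KO, a change of 4.26 ± 0.28. Serpinb9b, a serine protease inhibitor, was 5.8, 7.75 and 5.46 CPM against 62.4, 68.8, 46.1 and 38.1 CPM (3.06 ± 0.24). Sh3bgrl had 1.79 CPM in wild-type replicate 1, no read in the other 2, and 17.5, 21.1, 14.3 and 19.2 CPM in KO. Its fitted change of 5.01 rests on the reads of wild-type replicate 1, without which it was 8.84, and it was 4.403 without replicate 3. The lincRNA A730082K24Rik had no read in any wild-type library and 18.6, 15.2, 16.2 and 20.8 CPM in KO, at least 15.0-fold higher than the 3-count floor of 1.18 CPM over the wild-type group.

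Other protein-coding genes with the largest rises were Tnfsf9, Cntln, Irgm1, Tex13b, Ano1, Fcgr2b and Anxa1, with log2 changes from 3.05 (Anxa1, an annexin) to 3.89 (Tnfsf9, a TNF-family ligand). All of these were below 4 CPM in every wild-type replicate. Single wild-type replicates moved 4 of them by over 1.5-fold: Tnfsf9 was 4.77 without replicate 3, Cntln 4.10 without replicate 2, Tex13b 4.31 without replicate 1 and Irgm1, an interferon-inducible GTPase, 2.73 without replicate 2. Among noncoding genes, Gm39458 rose by 3.23, C430049B03Rik by 2.48 and Mir142hg by 1.97 on the log2 scale.

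The falls named here were the largest among genes past a minimum mean level in wild type, so their moderate levels follow from that rule. Gtsf1l (mm10, chr2:163087034-163087855, minus strand) was 22.8, 24.0 and 17.5 CPM in wild type and 0.572, 0.649, 0 and 0.533 CPM in KO, a log2 change of -5.47 ± 0.37 (adjusted p = 4.20e-16). Pcdh19, a protocadherin of the X chromosome, fell from 16.97, 30.6 and 27.7 CPM to 2.58, 0.973, 2.14 and 2.13 CPM (-3.65 ± 0.28). Pramel7, a gene known from early embryos and naive stem cells, fell from 41.1, 37.3 and 46.6 CPM to 6.01, 4.54, 2.75 and 2.93 CPM (-3.35 ± 0.20). Edn1, the precursor of the peptide endothelin-1, fell from 29.0, 29.9 and 34.2 CPM to 3.15, 5.19, 2.75 and 2.66 CPM (-3.18 ± 0.22). Pla2g1b, a secreted phospholipase, fell by 3.67, Gm14406 by 3.24, Pvrig by 3.11, Bglap3 by 3.09, Liph by 2.82 and Mypn by 2.77. Without clone 1 replicate 2, Bglap3 fell by 3.97. The most abundant noncoding gene among the falls, Gm42047, was 422, 402 and 414 CPM against 53.8, 52.2, 65.3 and 63.1 CPM (-2.81 ± 0.09). Gm37116 fell by 4.35, Gm15950 fell by 3.39 and Gm17233 fell by 3.31, and the first 2 are pseudogenes, which share sequence with other genes.

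**Figure D2:**
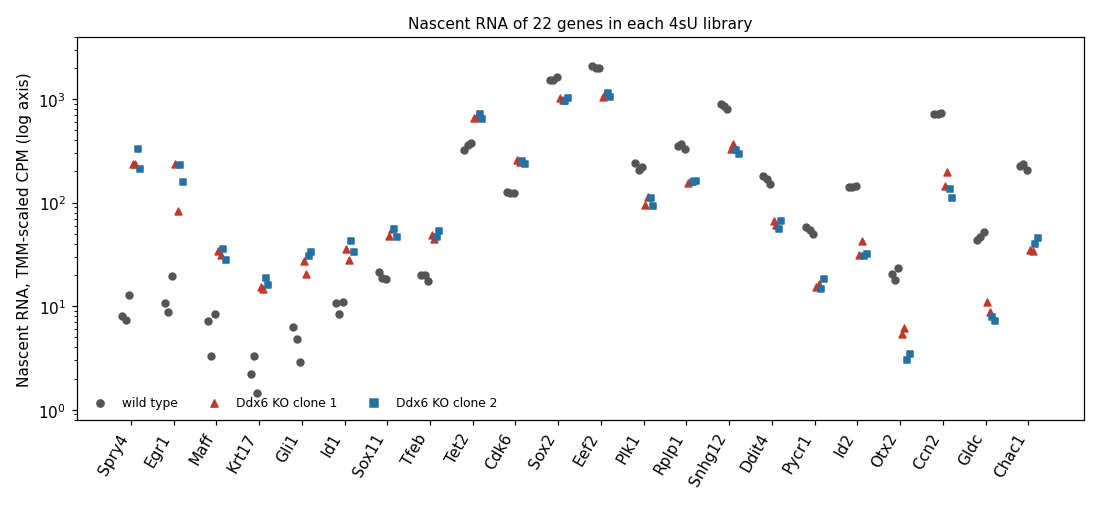
Nascent RNA of 22 genes in TMM-scaled CPM on a log axis, 1 point per library, for wild type (grey circles), Ddx6 KO clone 1 (red triangles) and clone 2 (blue squares). Genes higher in KO stand on the left, from Spry4 to Cdk6, genes lower in KO on the right, from Sox2 to Chac1, and most of the 22 were named by a rule that asks for groups without overlap.

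Programmes were then described with 64 lists of textbook genes. The plot of list shares shows that 3 lists were nearly all on 1 side: ribosomal proteins and targets of ATF4 were lower, and genes of the 2-cell-like state were higher. Of the 14 2-cell-like genes tested, 8 passed the filter only with the KO libraries, so their share is a description. All tested members of the other 2 lists reached 3 CPM in every wild-type library.

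**Figure D3:**
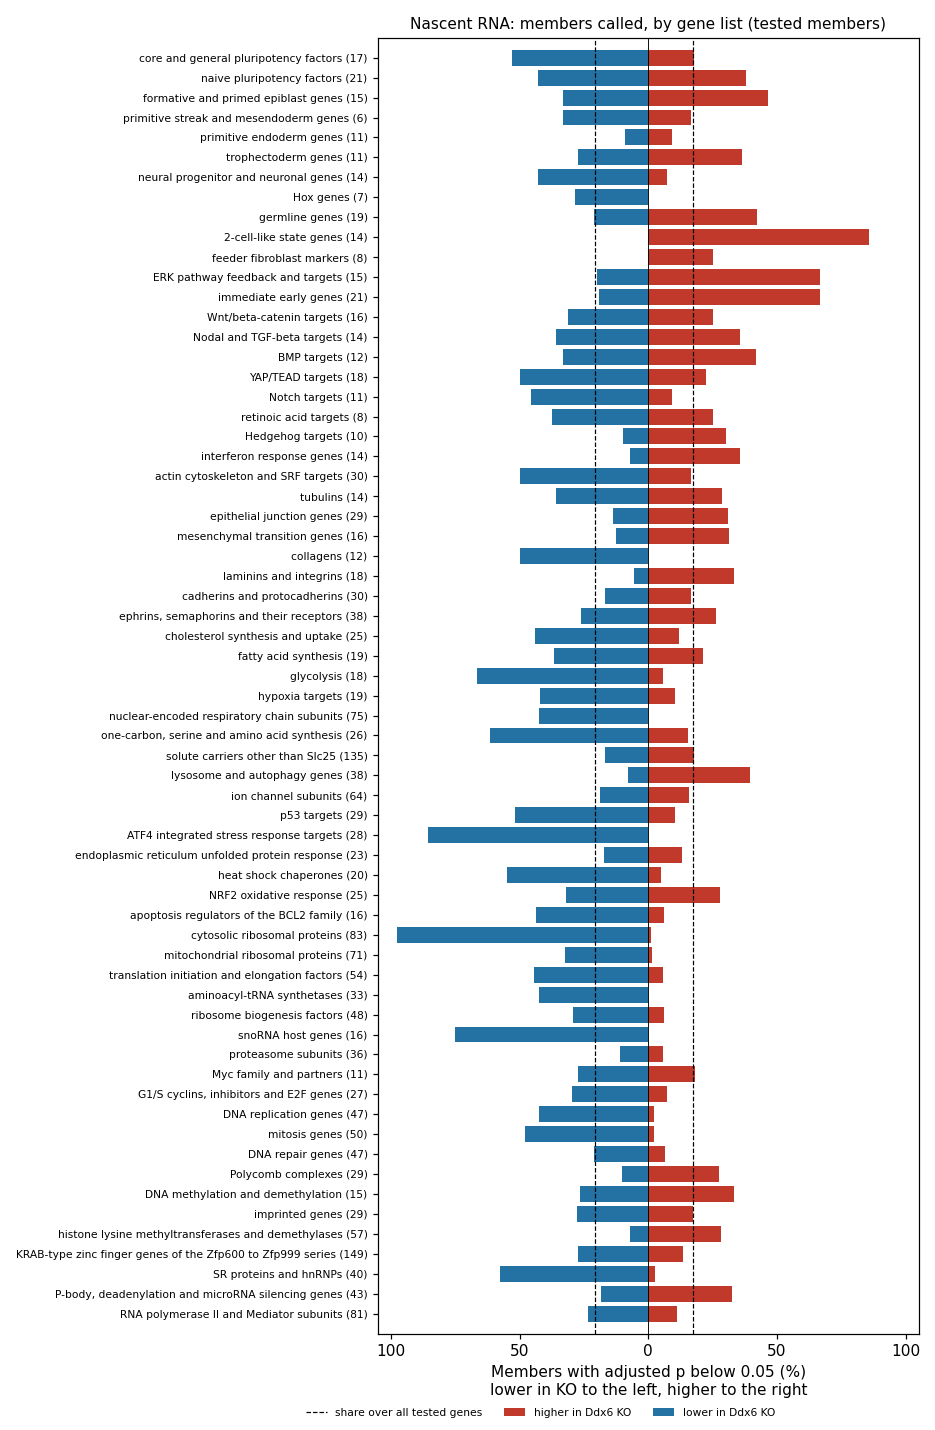
Percent of the tested members of each of 64 gene lists with lower (blue, left) and higher (red, right) nascent RNA in Ddx6 KO, with the number tested in parentheses and dashed lines at the shares over all tested genes outside the classes set aside. Cytosolic ribosomal proteins (81 of 83 lower), ATF4 targets (24 of 28 lower) and 2-cell-like genes (12 of 14 higher) reach farthest past the dashed lines at 20.6% and 17.4%. Of the 14 2-cell-like genes, 8 passed the filter only with the KO libraries.

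Growth machinery was lower. Of 83 cytosolic ribosomal protein genes tested, 81 were lower, 1 was higher and 1 did not pass, against 20.6% lower among all genes, and the median log2 change was -0.91. The list medians were between -0.97 and -0.80 in the 4 KO replicates. These genes are short and abundant, and many have processed pseudogenes, which can take reads that are then not counted as unique. Rplp1, an acidic stalk protein of the large subunit, was 350, 372 and 333 CPM in wild type and 156, 161, 157 and 161 CPM in KO (-1.15 ± 0.08, adjusted p = 1.97e-16). Rps9, of the small subunit, was 1051, 1056 and 932 CPM against 481, 447, 458 and 458 CPM (-1.136 ± 0.07). All 4 KO values were well below the wild-type values for both genes. The paralogs stood apart from the rest: Rpl39l fell most, from 67.0, 73.1 and 64.0 CPM to 14.02, 10.7, 9.46 and 5.59 CPM (-2.78 ± 0.16), and Rpl10l, a paralog known from testis, rose from 71.0, 59.8 and 60.8 CPM to 116, 120, 112 and 125 CPM (0.90 ± 0.10). In total RNA, Rplp1 changed by -0.86, Rpl39l by -3.02 and Rpl10l by 1.20.

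Host genes of small nucleolar RNAs carry these RNAs in their introns and, like ribosomal protein genes, many have the 5′ pyrimidine tract that ties translation to growth. Of 16 tested, 12 were lower and 0 higher, with a median of -1.10. Snhg12 was 890, 866 and 796 CPM in wild type and 328, 368, 323 and 298 CPM in KO (-1.37 ± 0.07), and Snhg5 was 1693, 1766 and 1607 CPM against 652, 762, 683 and 673 CPM (-1.29 ± 0.07). Gas5 was 2485, 2551 and 2400 CPM against 1119, 1226, 1208 and 1171 CPM. Other parts of the machinery were nearer to the background. Of 54 translation factors, 24 were lower and 3 higher (median -0.17). Eef2, the elongation factor for translocation, fell from 2107, 1999 and 2009 CPM to 1040, 1114, 1148 and 1042 CPM (-0.91 ± 0.07), and Eif2s2, the beta subunit of eIF2, by 0.92. Eif4g3, a scaffold of the cap-binding complex, rose by 0.80. Of 33 aminoacyl-tRNA synthetases 14 were lower and 0 higher (-0.27), of 71 mitochondrial ribosomal proteins 23 lower and 1 higher (-0.17), of 48 ribosome biogenesis factors 14 and 3 (-0.11), and of 36 proteasome subunits 4 and 2 (-0.04). With scaling by library size alone, the medians of translation factors (0.03), mitochondrial ribosomal proteins (0.03), biogenesis factors (0.10) and proteasome subunits (0.16) were above 0, with 11 translation factors lower and 14 higher, 8 mitochondrial ribosomal proteins lower and 7 higher, 6 biogenesis factors lower and 16 higher, and 9 synthetases lower and 4 higher, while ribosomal proteins stayed at -0.71 with 80 lower, and host genes at -0.90. With the same scaling, 1 proteasome subunit was lower and 9 were higher. The Myc family, drivers of growth programmes, and their partners did not share the fall: of 11 tested, 2 were higher and 3 lower, with a median of 0.22. With library size alone, 7 were higher and 3 lower (0.42). Mxd4, an antagonist of Myc, rose by 1.55, from below 2 CPM in wild type. Mycn fell from 318, 312 and 342 CPM to 175, 182, 173 and 174 CPM (-0.88 ± 0.08) and Mycl from 34.4, 29.5 and 28.0 CPM to 5.15, 5.84, 5.50 and 2.66 CPM (-2.68 ± 0.21). In total RNA, Mycn changed by 0.20. Myc was 12.5, 11.8 and 22.9 CPM against 18.3, 24.98, 25.04 and 14.4 CPM, with an adjusted p of 0.19, and passed the threshold without wild-type replicate 3 (0.0082) or without clone 2 replicate 2 (0.044).

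ATF4 is the transcription factor of the integrated stress response. When eIF2 is phosphorylated, ATF4 is translated and turns on genes of amino acid synthesis and uptake, tRNA charging and redox balance. Of 28 targets tested, 24 were lower, 0 higher and 4 did not pass, with a median log2 change of -0.59 and list medians from -0.68 to -0.60 in the 4 KO replicates. With scaling by library size alone, 22 were lower. Chac1, which degrades glutathione (mm10, chr2:119351229-119354381, plus strand), was 224, 237 and 208 CPM in wild type and 35.2, 33.7, 40 and 45.6 CPM in KO (-2.52 ± 0.10, adjusted p = 3.16e-24). Ddit4, an inhibitor of mTORC1, was 180, 168 and 150 CPM against 65.8, 61.3, 55.9 and 66.1 CPM (-1.41 ± 0.09). Stc2, a secreted glycoprotein, was 26.3, 21.4 and 23.3 CPM against 7.44, 5.51, 8.86 and 6.66 CPM (-1.72 ± 0.20). Atf4 itself fell from 1489, 1564 and 1380 CPM to 1011, 1010, 953 and 1139 CPM (-0.52 ± 0.07), and Trib3, a pseudokinase that feeds back on ATF4, from 71.4, 79.3 and 76.8 CPM to 40.6, 36.3, 58.0 and 39.97 CPM. In total RNA, Chac1 changed by -1.01, Ddit4 by -0.43, and Atf4 by -0.38, and the value for Trib3 was 0.19 (adjusted p = 0.056).

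Promoters of the ATF4 list are shown because its members moved together. ATF4 pairs with C/EBP factors on a composite element, searched here as TGATGNAAT on both strands of the RefSeq windows (GRCm38.p6) from 250 bases before to 50 bases after the start site. It stood in 42 of the 9733 windows of tested genes (0.432%) and in 3 of 24 windows of the ATF4 list (12.5%), those of Aars, Nupr1 and Pycr1. The element is in capitals, and the strand is that of the gene: Aars at chr8:111033592-111033891 (plus), Nupr1 at chr7:126625421-126625720 (minus) and Pycr1 at chr11:120643699-120643998 (minus).
Aars: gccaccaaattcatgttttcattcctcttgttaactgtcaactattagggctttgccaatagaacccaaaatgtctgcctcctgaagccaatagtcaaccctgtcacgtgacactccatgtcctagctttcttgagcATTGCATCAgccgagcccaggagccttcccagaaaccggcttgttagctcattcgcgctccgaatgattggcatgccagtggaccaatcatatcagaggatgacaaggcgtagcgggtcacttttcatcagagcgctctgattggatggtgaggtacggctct
Nupr1: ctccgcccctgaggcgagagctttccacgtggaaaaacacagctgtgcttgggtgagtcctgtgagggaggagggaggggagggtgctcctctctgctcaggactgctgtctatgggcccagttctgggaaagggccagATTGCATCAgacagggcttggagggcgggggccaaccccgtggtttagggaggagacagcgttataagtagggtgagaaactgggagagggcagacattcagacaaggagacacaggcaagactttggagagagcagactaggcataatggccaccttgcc
Pycr1: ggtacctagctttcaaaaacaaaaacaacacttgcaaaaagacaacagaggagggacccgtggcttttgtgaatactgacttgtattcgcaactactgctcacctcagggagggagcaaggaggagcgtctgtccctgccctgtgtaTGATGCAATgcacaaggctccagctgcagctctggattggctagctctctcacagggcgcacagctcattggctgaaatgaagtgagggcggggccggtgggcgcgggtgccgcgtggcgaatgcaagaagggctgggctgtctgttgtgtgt
A match is a description of letters, not of binding. Nascent Aars, the alanyl-tRNA synthetase gene, was 660, 649 and 731 CPM in wild type and 427, 444, 483 and 478 CPM in KO (-0.57 ± 0.07). Nupr1, a small stress-induced chromatin protein, was 86.6, 113 and 96.1 CPM against 39.5, 34.7, 37.9 and 48.5 CPM (-1.29 ± 0.11). Pycr1, an enzyme of proline synthesis, was 57.6, 54.2 and 50.2 CPM against 15.4, 16.5, 14.7 and 18.4 CPM (-1.72 ± 0.14).

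Other stress lists were mixed or nearer to the background. Of 20 heat shock chaperones, 11 were lower and 1 higher (median -0.29; 6 and 4 with library size alone), with Hspe1, the mitochondrial co-chaperonin, down from 110, 104 and 131 CPM to 77.3, 74.3, 72.7 and 73.8 CPM, and Hsp90aa1, the inducible HSP90, up from 1756, 1798 and 1844 CPM to 2534, 2222, 2424 and 2922 CPM. Of 29 p53 targets, 15 were lower and 3 higher (-0.28; 8 and 4 with library size alone). Phlda3, an inhibitor of AKT, was 180, 154 and 163 CPM against 62.7, 83.7, 62.9 and 60.8 CPM (-1.29 ± 0.10), and Bbc3, the pro-apoptotic PUMA, was 39.3, 39.1 and 45.1 CPM against 17.7, 23.7, 18.6 and 19.2 CPM (-1.06 ± 0.14), while Perp rose by 0.89. Cdkn1a was 529, 488 and 572 CPM against 476, 505, 457 and 470 CPM, with an adjusted p of 0.088, and had the opposite sign (0.05) with scaling by library size alone. Of 23 genes of the endoplasmic reticulum unfolded protein response, 4 were lower and 3 higher (median 0.03, with a sign that changed between settings), and 3 were lower and 10 higher with library size alone. Herpud1, of the same compartment's degradation pathway, was the largest fall, from 208, 226 and 244 CPM to 86.4, 93.8, 106 and 104 CPM (-1.21 ± 0.09), with a total RNA value of -0.07 (adjusted p = 0.41). Of 25 NRF2 targets, 7 were higher and 8 lower (median -0.02), and 11 and 3 with library size alone (0.18). Srxn1, a sulfiredoxin, rose from 32.6, 36.5 and 26.2 CPM to 65.5, 74.9, 70.5 and 89.0 CPM, and Nqo1 by 1.01, while Fth1, ferritin heavy chain, fell by 0.60. Of 16 regulators of the BCL2 family, 7 were lower and 1 higher (3 and 2 with library size alone), with Bcl2l11, which encodes BIM, at 55.8, 53.9 and 50.9 CPM against 22.9, 24.6, 23.2 and 23.7 CPM (-1.18 ± 0.13).

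Targets of ERK signalling, which the MEK inhibitor in the medium of all groups blocks upstream, leaned higher. Of 15 tested, 10 were higher, 3 lower and 2 did not pass, with a median of 0.98, and 7 of the 10 rose by more than 2-fold. List medians were 0.73 to 1.00 in the KO replicates and -0.08 to 0.09 in the wild-type replicates. Beside Spry4, Egr1, an immediate early zinc finger factor, was 10.7, 8.86 and 19.6 CPM in wild type and 238, 83.0, 230 and 159 CPM in KO (3.75 ± 0.61, adjusted p = 0.0052), with a wide spread among KO replicates. Further list members are named here after their values were seen, to show the range. Dusp6, the ERK phosphatase, was 47.3, 29.9 and 49.5 CPM against 90.7, 75.6, 91.9 and 74.9 CPM (0.98 ± 0.13), and Etv4, an ETS factor, 19.2, 15.5 and 12.01 CPM against 37.2, 37.3, 47.9 and 40.5 CPM (1.40 ± 0.16). The 3 lower members were Spry2, Spry1 and Etv5, an ETS factor related to Etv4: Spry2 fell from 393, 369 and 487 CPM to 247, 212, 239 and 216 CPM (-0.87 ± 0.08), Spry1 by 0.67 and Etv5 by 0.55. Sprouty genes moved in opposite directions.

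Immediate early genes, which respond to serum and growth factors within minutes, were higher in 14 of 21 cases and lower in 4, with a median of 0.45. Maff, a small MAF factor, was 7.14, 3.32 and 8.37 CPM against 33.8, 31.5, 36.0 and 28.0 CPM (2.36 ± 0.21), with a total RNA change of 0.52. Junb was 121, 94.5 and 104 CPM against 231, 224, 281 and 298 CPM (1.28 ± 0.10). Gadd45b fell by 0.79 and Btg2, an antiproliferative gene, by 0.32. The ERK and immediate early lists share Egr1 and Ier3.

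Targets of other pathways went both ways. YAP and TEAD, the factors of the Hippo pathway, had 9 of 18 targets lower and 4 higher (median -0.36; 7 and 6 with library size alone), led by the matricellular genes Ccn2 (Ctgf), at 711, 717 and 735 CPM against 146, 198, 136 and 110 CPM (-2.29 ± 0.17), and Ccn1 (Cyr61), at 595, 600 and 580 CPM against 182, 242, 163 and 112 CPM (-1.76 ± 0.25, adjusted p = 0.0027). Nt5e and Fjx1, on the same list, rose by 2.64 and 1.83. Of 11 Notch targets, 5 were lower and 1 higher (-0.47): Notch3 fell from 21.4, 28.8 and 18.9 CPM to 5.44, 9.41, 9.46 and 8.26 CPM (-1.51 ± 0.21), and Hey1 by 1.47. Of 14 Nodal targets, 5 were lower and 5 higher. Both Lefty genes, secreted inhibitors of Nodal, fell, Lefty1 from 29.5, 29.1 and 35.7 CPM to 10.3, 10.7, 13.1 and 13.6 CPM (-1.39 ± 0.17) and Lefty2 by 1.12, while Tdgf1, the Nodal co-receptor Cripto, rose by 0.90.

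Inhibitor of differentiation genes, targets of BMP, split. Id1 rose from 10.7, 8.49 and 10.9 CPM to 35.5, 27.9, 43.0 and 33.0 CPM (1.80 ± 0.18) and Id3 from 98.2, 82.7 and 96.8 CPM to 193, 173, 173 and 158 CPM (0.92 ± 0.09), while Id2 fell from 142, 141 and 146 CPM to 31.2, 42.2, 30.5 and 32.2 CPM (-2.07 ± 0.10). Of 12 BMP targets, 5 were higher and 4 lower (median -0.09; 5 and 4, and 0.11, with scaling by library size alone). Hedgehog targets had 3 of 10 higher and 1 lower: Gli1, the pathway's transcriptional effector, was 6.25, 4.80 and 2.91 CPM against 27.2, 20.4, 30.5 and 33.3 CPM (2.61 ± 0.24), and Hhip, its feedback inhibitor, 5.80, 4.43 and 10.9 CPM against 36.4, 39.2, 26.3 and 25.1 CPM (2.14 ± 0.23), while Gas1, a co-receptor, fell by 1.76. Of 14 interferon response genes, 5 were higher and 1 lower (0.43). Oasl1 rose from 2.68, 3.32 and 5.09 CPM to 15.4, 14.6, 17.4 and 16.2 CPM (2.07 ± 0.27), and Bst2, tetherin, fell by 0.93. Wnt targets, with 4 of 16 higher and 5 lower (median -0.08; 4 and 4, and 0.13, with library size alone), had no clear lean. Retinoic acid targets, with 2 of 8 higher and 3 lower, had none either.

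**Figure D4:**
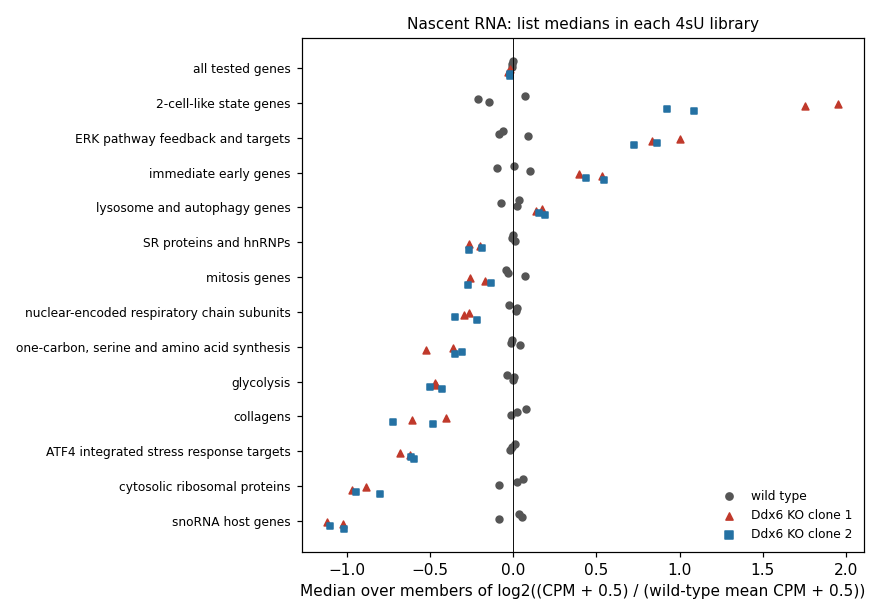
Median over the members of 13 lists and over all tested genes of log2((CPM + 0.5) / (wild-type mean CPM + 0.5)), 1 point per 4sU library, for wild type (grey circles), Ddx6 KO clone 1 (red triangles) and clone 2 (blue squares). The 2-cell-like, ERK and immediate early lists lie above 0 in all 4 KO libraries, and lists from SR proteins down to snoRNA host genes lie below.

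Genes of the pluripotency network moved in both directions, with 0 of 17 core factors and 2 of 21 naive factors changed by more than 2-fold. Of 17 core factors, 9 were lower and 3 higher (median -0.31). Sox2 fell from 1535, 1514 and 1627 CPM to 1027, 980, 967 and 1019 CPM (-0.64 ± 0.07, adjusted p = 4.72e-11), with 0.04 in total RNA, while Pou5f1, which encodes OCT4, rose from 202, 197 and 200 CPM to 241, 234, 282 and 246 CPM (0.33 ± 0.08). Lin28a, an RNA-binding protein that blocks let-7 maturation, fell by 0.69 and Mybl2 by 0.81. Of 21 naive factors, 8 were higher and 9 lower (0.04; 11 and 4 with library size alone). Tet2, a DNA hydroxylase, rose from 324, 358 and 378 CPM to 662, 680, 713 and 640 CPM (0.93 ± 0.07), Zfp42 (Rex1) by 0.35 and Esrrb by 0.24. Jam2, an adhesion molecule, fell from 469, 486 and 476 CPM to 219, 222, 157 and 156 CPM (-1.34 ± 0.10), and Tcl1, an AKT co-activator, by 1.16. Klf4 was 1131, 1149 and 1140 CPM against 1226, 1134, 1027 and 1291 CPM, an overlap of the groups (adjusted p = 0.71).

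Genes of the exit from naive pluripotency also split, with 7 of 15 higher and 5 lower. Otx2, the factor that opens formative enhancers, fell from 20.5, 18.1 and 23.3 CPM to 5.44, 6.16, 3.05 and 3.46 CPM (-2.19 ± 0.24), and Pou3f1, its partner, by 1.25, while Sox11 rose from 21.4, 18.8 and 18.2 CPM to 48.1, 55.5, 56.2 and 46.9 CPM (1.41 ± 0.14) and Sox4 by 1.02. Among neural genes, 6 of 14 were lower and 1 higher: Olig2 was 51.3, 43.5 and 60.8 CPM against 19.2, 24.0, 13.7 and 15.4 CPM (-1.53 ± 0.15). The keratins Krt17, at 2.23, 3.32 and 1.46 CPM against 15.4, 14.6, 18.6 and 15.99 CPM, and Krt8, at 4.91, 4.80 and 5.09 CPM against 14.9, 14.6, 17.7 and 15.7 CPM, rose among trophectoderm genes, of which 4 of 11 were higher and 3 lower, and where Gata3 fell by 2.05. Of 19 germline genes, 8 were higher and 4 lower, with Syce1, of the synaptonemal complex, at 2.23, 4.06 and 7.64 CPM against 24.6, 19.5, 24.7 and 21.6 CPM (2.23 ± 0.25).

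Genes of the 2-cell-like state, which a small share of stem cells in culture enters for a time, had the largest median rise of the lists. Of 14 tested, 12 were higher, 0 lower and 2 did not pass, with a median of 1.60. The list holds 19 genes, and 8 of the 14 tested were below 3 CPM in at least 1 wild-type library, so that these passed the filter only with the KO libraries and the count over tested members is a description. Of the 6 at or above 3 CPM in every wild-type library, 5 were higher. The same limit touched members of other lists. These were 5 of 19 germline, 3 of 14 interferon and 3 of 11 trophectoderm genes, and 5 of 8 feeder markers. Of germline genes at or above 3 CPM in every wild-type library, 4 were higher and 4 lower. Of such interferon genes 3 were higher and 1 lower, and of such trophectoderm genes 2 were higher and 3 lower. Further lists held members below it too, among them 4 of 29 junction genes and 12 of 135 solute carriers. Levels of the 2-cell-like genes were low, and they belong to multi-copy families whose members share reads, so values of single genes are uncertain. Zscan4d, a zinc finger protein tied to telomere upkeep, was 6.25, 5.17 and 9.10 CPM in wild type, 31.2 and 33.1 CPM in clone 1, and 13.4 and 14.4 CPM in clone 2 (1.73 ± 0.48, adjusted p = 0.022). It no longer passed without wild-type replicate 1 (adjusted p = 0.083), replicate 2 (0.098) or replicate 3 (0.081). Usp17le, a deubiquitinase, was 1.34, 2.21 and 1.46 CPM against 13.4, 12.3, 10.7 and 11.2 CPM (2.79 ± 0.34). List medians were 1.95 and 1.76 in clone 1 and 0.92 and 1.09 in clone 2.

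Actin and collagen genes leaned lower, and tubulin, junction and basement membrane genes did not. Of 30 genes of the actin cytoskeleton and SRF, 15 were lower and 5 higher (median -0.37; 11 and 9 with library size alone). Myl6, a myosin light chain, was 294, 272 and 289 CPM against 129, 151, 130 and 132 CPM (-1.07 ± 0.08), and Cnn2, a calponin, 54.0, 55.4 and 72.0 CPM against 28.9, 25.6, 30.5 and 22.9 CPM (-1.17 ± 0.13), with total RNA changes of -0.22 and -0.20. Tagln2 rose by 0.90. Of 14 tubulins, 4 were higher and 5 lower (median 0.12; 6 and 4 with library size alone). Of 12 collagens, 6 were lower and 0 higher (-0.65), with Col13a1 at 8.93, 9.22 and 8.73 CPM against 1.43, 2.92, 0.916 and 1.86 CPM (-2.32 ± 0.36). Of 18 laminins and integrins, 6 were higher and 1 lower (0.27): Lama4 rose from 6.70, 7.75 and 4.73 CPM to 24.6, 22.4, 26.3 and 29.8 CPM (2.02 ± 0.21), and Itgb5 fell by 1.27. Of 29 epithelial junction genes, 9 were higher and 4 lower, and Cdh1, E-cadherin, was 621, 673 and 679 CPM against 640, 661, 607 and 672 CPM (adjusted p = 0.78). Ephrins, semaphorins and other guidance genes were split evenly, 10 of 38 higher and 10 lower (median -0.07; 12 and 8, and 0.13, with library size alone), with Slit2 at 14.7, 21.8 and 17.1 CPM against 4.58, 4.22, 4.28 and 3.20 CPM (-2.14 ± 0.25) and Plxna2 up by 1.09. Fat2, a giant cadherin, rose by 1.63.

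Metabolic genes of carbon and energy use were lower. Of 18 glycolysis genes, 12 were lower and 1 higher (median -0.51). Aldoa, aldolase A, fell from 474, 531 and 437 CPM to 283, 294, 292 and 308 CPM (-0.71 ± 0.07) and Ldha, lactate dehydrogenase A, from 250, 285 and 270 CPM to 183, 189, 180 and 185 CPM (-0.54 ± 0.08), while Pfkfb3, which makes the activator of phosphofructokinase, rose from 16.1, 22.9 and 16.4 CPM to 43.5, 39.2, 43.7 and 37.6 CPM (1.141 ± 0.15). Of 75 nuclear-encoded subunits of the respiratory chain, 32 were lower and 0 higher (-0.30), none by more than 2-fold. Uqcrq, of complex III, was 92.0, 110 and 88.4 CPM against 57.2, 58.4, 51.0 and 63.1 CPM (-0.75 ± 0.10). With scaling by library size alone, 11 subunits were lower and 5 higher.

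Serine, glycine and one-carbon genes had 16 of 26 lower and 4 higher (median -0.38), and several belong to the ATF4 list too. Gldc, the glycine decarboxylase, fell from 43.8, 46.5 and 52.0 CPM to 10.9, 8.76, 7.94 and 7.19 CPM (-2.45 ± 0.16, adjusted p = 2.12e-16), and Phgdh, which opens serine synthesis, from 31.2, 31.0 and 27.7 CPM to 13.7, 14.9, 12.5 and 12.3 CPM (-1.17 ± 0.16). Tdh, the threonine dehydrogenase of mouse stem cells, rose from 113, 108 and 124 CPM to 188, 173, 201 and 191 CPM (0.71 ± 0.09). Of 25 cholesterol genes, 11 were lower and 3 higher (-0.33; 6 and 5 with library size alone). Lysosome and autophagy genes were higher in 15 of 38 cases and lower in 3 (0.16). Tfeb, their transcription factor, was 20.1, 19.9 and 17.5 CPM against 48.6, 44.1, 46.7 and 53.02 CPM (1.33 ± 0.14), and Sqstm1, the p62 cargo receptor, 158, 176 and 172 CPM against 303, 302, 336 and 332 CPM (0.92 ± 0.08). Among 135 solute carriers, 24 were higher and 23 lower, shares near the background (43 and 17 with library size alone).

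Cell cycle genes were lower by small amounts. Of 50 mitosis genes, 24 were lower and 1 higher (median -0.20), and of 47 replication genes 20 and 1 (-0.19). With scaling by library size alone, both medians were near 0 (0.0033 and 0.02), with 11 mitosis genes lower and 10 higher, and 13 replication genes lower and 8 higher. Plk1, a mitotic kinase, was 242, 208 and 220 CPM against 94.7, 113, 110 and 93.5 CPM (-1.12 ± 0.09), and Aurka, another, 298, 308 and 341 CPM against 133, 172, 172 and 130 CPM (-1.06 ± 0.09). Dut, the dUTPase, fell from 163, 164 and 160 CPM to 75.3, 81.1, 81.8 and 86.3 CPM (-0.999 ± 0.09). Cdc25b rose from 9.38, 8.86 and 12.7 CPM to 25.5, 21.4, 33.0 and 25.6 CPM (1.34 ± 0.19), and Cdk6, a G1 kinase, from 127, 122.9 and 124 CPM to 256, 246, 250 and 235 CPM (0.99 ± 0.08). Ccnd1, cyclin D1, fell by 0.50.

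Among chromatin and RNA genes, 23 of 40 SR proteins and hnRNPs were lower and 1 higher (median -0.23). Srsf1, a splicing factor, fell from 1722, 1747 and 1744 CPM to 1110, 1155, 1097 and 1108 CPM (-0.64 ± 0.06), with 0.08 in total RNA. With scaling by library size alone, 11 were lower and 7 higher. Histone lysine methyltransferases and demethylases leaned the other way, with 16 of 57 higher and 4 lower (0.15; 34 and 1 with library size alone), among them Setd1b, at 62.1, 64.6 and 65.1 CPM against 102, 111, 130 and 103 CPM (0.80 ± 0.10). Of the genes of P-bodies, deadenylation and microRNA silencing, where DDX6 itself acts, 14 of 43 were higher and 8 lower (0.01; 22 and 3 with library size alone). Pabpc4, a cytoplasmic poly(A)-binding protein, was 146, 135 and 129 CPM against 64.1, 64.2, 68.7 and 67.4 CPM (-1.04 ± 0.09), Nanos1, a translational repressor, fell by 1.16, and Ago3 rose from 47.3, 48.0 and 31.3 CPM to 67.0, 68.5, 70.2 and 63.1 CPM (0.68 ± 0.12). Trim28, the corepressor of KRAB zinc finger proteins, fell from 812, 767 and 794 CPM to 517, 528, 546 and 526 CPM. Of 149 zinc finger genes of the Zfp600 to Zfp999 series, 41 were lower and 20 higher (median -0.01), and 24 and 51 with library size alone (0.19), with Zfp992 at 76.3, 72.0 and 81.5 CPM against 28.1, 29.2, 18.6 and 15.99 CPM (-1.75 ± 0.14).

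The clones were compared with each other in a fit with 3 groups. Of 14062 genes, 8 differed with an adjusted p below 0.05 and more than 2-fold (0.0569%), 7 higher in clone 1 and 1 higher in clone 2, and 17 passed the adjusted p alone. Genes of the Y chromosome were 3 of the 17, from 5 tested. Ddx3y, a DEAD-box helicase, was 30.4, 28.4 and 22.9 CPM in wild type, 50.7 and 58.1 CPM in clone 1, and 0.305 and 0.799 CPM in clone 2. Eif2s3y, the Y-linked gamma subunit of eIF2, was 7.59, 4.06 and 4.73 CPM, then 33.8 and 24.6 CPM, then 0.305 and 0 CPM, and Uty, a histone demethylase paralog, was 4.46, 9.59 and 6.19 CPM, then 15.2 and 16.5 CPM, then 0 and 0.266 CPM. Clone 2 was at or near 0 for all 3, clone 1 above wild type, and V6.5 is a male line; whether clone 2 still carries a Y chromosome was not tested. The other 2 Y-linked genes tested, Gm21742 and Gm47283, had reads in both clones, and lie by the pseudoautosomal end, whose sequence the X chromosome shares. With so few reads in clone 2, the fitted differences of 6.44 to 7.32 are no bound.

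Imprinted genes were 5 of the 17, from 34 list members tested. Peg3 was 50.0, 52.8 and 56.8 CPM in wild type, 42.1 and 41.2 CPM in clone 1, and 81.2 and 87.1 CPM in clone 2 (a difference of clone 1 minus clone 2 of -1.02 ± 0.13, adjusted p = 1.51e-05). Kcnq1ot1, a long noncoding RNA that silences its neighbours, was 1101, 1216 and 1056 CPM in wild type, 873 and 819 CPM in clone 1, and 1383 and 1579 CPM in clone 2 (-0.81 ± 0.09). Grb10 was 26.3, 36.9 and 26.2 CPM, then 45.8 and 40.9 CPM, then 17.1 and 27.7 CPM (0.94 ± 0.19), and Nespas differed by -0.60. For Peg3 and Kcnq1ot1 wild type lay between the clones. The other genes past 2-fold were Zscan4d (1.20 ± 0.21), Gm12794 (1.24), Gm5039 (1.03) and Nefm, a neurofilament (1.61 ± 0.32), all higher in clone 1. None of these 4 kept the call without clone 2 replicate 1, where the differences were 1.16, 1.17, 0.97 and 1.11, and each lost it without 1 or more of the other KO replicates. Without clone 2 replicate 2, Nefm was at 2.55. Ddx6 itself differed by 0.56 ± 0.11 (adjusted p = 0.0092), with clone 1 the higher.

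**Figure D5:**
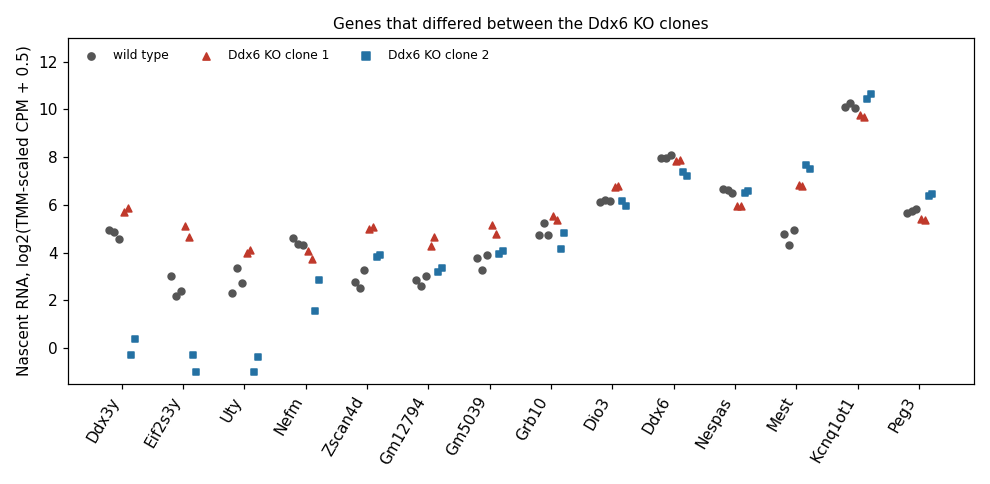
Nascent RNA, as log2(TMM-scaled CPM + 0.5), of 14 genes that differed between the Ddx6 KO clones, 1 point per library, for wild type (grey circles), clone 1 (red triangles) and clone 2 (blue squares). The 3 Y-linked genes on the left lie near the floor in clone 2 and above wild type in clone 1, and Peg3 and Kcnq1ot1 on the right lie above wild type in clone 2 and below it in clone 1.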

How the data were processed

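RNA was measured by sequencing of 4sU-labelled RNA in 3 wild-type and 4 Ddx6 KO replicates (2 per clone), with total RNA of the same samples set beside named genes only. The authors deposited raw read counts per gene: per the labels and methods, adapters were trimmed with cutadapt 1.14, reads were mapped to mm10 with STAR 2.5.3a keeping unique alignments, and exonic reads on the gene's strand were counted with featureCounts 1.5.3. Multi-copy genes therefore lose reads. All 92 spike-in rows were 0 and were left out.

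The counts of the single-end run and of the re-sequencing run were summed per library. Symbols came from Gencode M21 for 51274 of 51467 genes. Genes that reached 3 CPM in 3 or more of the 7 libraries were fitted with edgeR 4.0.16 (R 4.3.3; TMM, robust quasi-likelihood test, Benjamini-Hochberg adjustment over all tested genes); a gene was called at an adjusted p below 0.05 with a log2 change over 1. The clones were compared in a fit with 3 groups, and total RNA was fitted by the same steps. SE is the size of the log2 change divided by the square root of the F statistic. List medians per library used a pseudocount of 0.5 CPM. The fit was tested on simulated data. Counting error alone bounds single low values.

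Named genes were the up to 2 largest rises and falls per list and the 12 coding and 4 noncoding largest rises and falls among non-overlapping genes, a set of anchor genes, the largest clone differences, and some further list members named after their values were seen. The members and lists were chosen with earlier results of these data known. Alternatives were DESeq2 1.42.0, limma-voom (limma 3.58.1), other scalings, filters, thresholds and runs, single clones, a replicate block and leaving out each replicate. Values of 2 anchor genes are not reported here.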

Additional observations from a re-analysis of the deposited data

Results flagged for a closer look

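Among 146 named genes, 5 had 1 of the 4 Ddx6 KO replicates far from the other 3 by Dixon's criterion. Chance alone marks about 1 in 20 groups. Clone 1 replicate 2 was the highest for Id2 (42.2 CPM, against 30.5 to 32.2 in the others), Myl6 (151 CPM, against 129 to 132) and Phlda3 (83.7 CPM, against 60.7 to 62.9). Clone 1 replicate 1 was the lowest for Pou3f1 (3.15 CPM, against 3.89 to 4), and clone 2 replicate 1 the highest for Tcl1 (21.7 CPM, against 14 to 14.6). All 5 genes lay below wild type in all 4 KO replicates, which the rule that named them asks for.

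The KO clones differed from each other by edgeR's test of the difference for 8 genes. As log2 of clone 1 over clone 2, the differences were 6.48 for Ddx3y, 7.32 for Eif2s3y and 6.44 for Uty, all on the Y chromosome, 1.24 for Gm12794, 1.03 for Gm5039, 1.61 for Nefm, 1.2 for Zscan4d and -1.02 for Peg3. The Y-linked differences rest on reads near 0 in clone 2.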

How the results depend on the processing

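The 1488 called genes became 775 (311 higher, 464 lower) with at least 3 CPM required in every library, 3142 with a log2 threshold of 0.58 and 5565 with the adjusted p alone, as a stricter filter and looser thresholds must. With library size alone 1068 were higher and 470 lower, and among protein-coding genes alone 512 were lower. Leaving out each replicate gave 1328 to 1477 calls, 652 to 707 higher and 621 to 825 lower. The 8 genes that differed between clones became 4 with DESeq2, 5 with the single-end run alone, and 5 to 11 with each replicate left out; the cause was not tested. Of named genes, Cdh1 reversed with library size alone (0.17), without the filter (0.0035) and when single replicates were left out (-0.074 to 0.0024), Cdkn1a with library size alone (0.051) and Klf4 without clone 2 replicate 2 (-0.011, with a range of -0.011 to 0.097 over single replicates). None of these 3 had passed the test.

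Deviations of same-numbered samples from their group mean had correlations of -0.0817 to 0.107. With 2 replicates per clone, the deviations within a clone mirror each other, so these values cannot show whether the replicate number marks a pairing. With the replicate block there were 1511 calls (663 higher, 848 lower), and 11 between clones; Myc then passed (0.75) and Zscan4d did not (2.00). Depth limits genes near the floor of 3 counts, 0.840 to 1.23 CPM per library.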
